A study of Aspergillus cristatus with 9 samples.

Results

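SI65_09249 and SI65_09252 are 2 of the 10227 genes in the expression table of the golden flower fungus Aspergillus cristatus, called Eurotium cristatum in the sample labels. SI65_09249 is described in the table as Cyanovirin-N. SI65_09252 lies 3.792 kb further along contig 17, start to start, and is described there as a hypothetical protein, although a Cyanovirin-N homology domain has been assigned to it in the published annotation. Both genes were chosen by their measured FPKM in these libraries, mainly the difference between fungus on Panax ginseng roots and fungus without roots. That difference is therefore given as a description without a test.

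The study asked which fungal genes respond when the fungus is grown on Panax roots. RNA was sequenced from strain JLU in 3 groups of 3 libraries, all started from cultures kept 10 days on potato dextrose agar (PDA). EcRS was fungus harvested after 1 week at 28 °C on sterilized roots of Panax ginseng, EcSQ was fungus treated likewise on roots of Panax notoginseng, and EcCK was fungus that had met no root. The sample labels call all 9 samples, controls included, mycelium aged 1 week, whereas the study's methods describe EcCK as spores taken from plates, so root contact, the change of medium and a change of growth stage cannot be told apart in any comparison with EcCK.

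Cyanovirin-N is a small lectin, a protein that binds sugars, originally isolated from a cyanobacterium. It binds the high-mannose glycans carried by many glycoproteins and is best known for its antiviral activity. Relatives of it, the Cyanovirin-N homologs, occur in filamentous fungi and in ferns, and their roles in the fungi that make them are poorly known.

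SI65_09249, SI65_09250, SI65_09251 and SI65_09252 follow each other on the + strand of contig 17 in the fungal genome assembly used by the authors, within 4171 bases. SI65_09249 spans positions 204098 to 204509 and has 2 exons with a coding length of 324 bases, or 108 codons. SI65_09252 spans positions 207890 to 208268, also with 2 exons, and has a coding length of 321 bases. SI65_09251, at positions 205962 to 206345, is the other gene described as Cyanovirin-N and has the same exon number and the same coding length as SI65_09252. These 3 genes carry the annotation carbohydrate binding, while SI65_09250, at positions 204989 to 205313 with a coding length of 204 bases, is a hypothetical protein with no annotated function. Genes this short are few, since 440 genes (4.30%) had a coding length no longer than that of SI65_09249. The genes before and after the 4, SI65_09248 and SI65_09253, lie on the opposite strand. How alike the sequences of the 3 carbohydrate-binding genes are was not examined here, and reads from near-identical stretches could have been shared among them in the authors' counting, so the exact division of signal between them is uncertain.

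The libraries held 45891944 to 61627866 estimated counts. In every EcCK and EcRS library this was more than the valid reads that the paper reports, so a count is not the same as a read. Levels are given as FPKM, sequenced fragments scaled to the length of the gene and to the number of mapped reads. The median gene stood at 5.58 to 6.38 FPKM in EcRS and at 12.6 to 19.1 FPKM in EcCK, and the 3 EcSQ libraries stood far apart, at 20.7, 14.1 and 4.29 FPKM in replicates 1, 2 and 3. Correspondingly, the median log2 fold change of all genes tested was -0.96 for EcRS against EcCK, -0.01 for EcSQ against EcCK and -0.84 for EcRS against EcSQ, and it moved to -0.11, 0.03 and -0.21 after trimmed mean (TMM) rescaling. Reads outside the listed genes made up 23.1% to 26.9% of mapped units in EcRS and 12.1% to 14.9% in the other groups, and their part in the results was not tested. Whether replicate libraries stem from different cultures is not given, so p-values measure only their spread, which may be technical.

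In the absence of roots, SI65_09249 was a gene of middling level. The EcCK libraries gave 12.2, 14.2 and 45.0 FPKM in replicates 1, 2 and 3, ranks 5179, 5131 and 2972 of all genes. On ginseng roots the same gene stood at 4569, 2648 and 3406 FPKM, ranks 30, 49 and 33. On notoginseng roots it reached 1482, 837 and 865 FPKM, ranks 85, 158 and 187. Every root library lay above every EcCK library, every EcRS library lay above every EcSQ library, and EcCK replicate 3 stood above the other controls. Such full separation was found in 18.3% of genes tested for EcRS above EcCK, 14.3% for EcSQ above EcCK and 5.75% for EcRS above EcSQ.

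SI65_09252 was a low gene in the controls. The EcCK libraries gave 1.55, 1.09 and 2.52 FPKM, from 33, 25 and 57 estimated counts. In EcRS it stood at 979, 468 and 638 FPKM, and in EcSQ at 210.3, 325 and 111 FPKM. Again the 3 groups did not overlap, with EcRS highest and EcCK lowest, and the level in the lowest root library was still far above that of any control. Among all genes of a library it ranked 8516, 8880 and 8249 in EcCK, 180, 335 and 255 in EcRS, and 681, 423 and 1053 in EcSQ. Across the 9 libraries the highest level was 895 times the lowest for SI65_09252 and 375 times for SI65_09249.

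**Figure D1:**
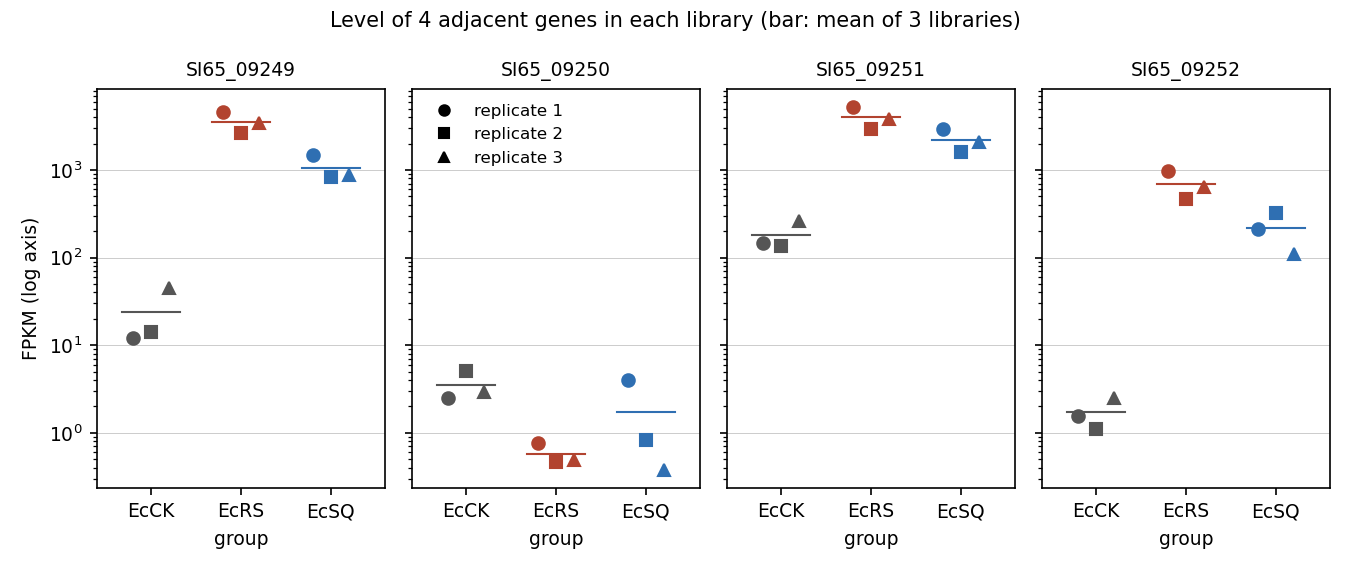
FPKM (log axis) of 4 adjacent genes in each of the 9 libraries, by group, with the mean of 3 libraries as a bar. SI65_09249, SI65_09251 and SI65_09252 sit lowest in EcCK, while SI65_09250, which lies between them, sits below 6 FPKM everywhere.

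Between ginseng roots and no roots, the contrast for which the pair was picked, the mean level of SI65_09249 was 3541 ± 968 FPKM in EcRS (SD, n = 3) and 23.8 ± 18.4 FPKM in EcCK (SD, n = 3). The log2 fold change was 7.22 ± 0.66 (SE), the 4th largest of 8925 genes tested. It was 8.06 without EcCK replicate 3, the library with the high control value. For SI65_09252 the means were 695 ± 260 FPKM in EcRS and 1.72 ± 0.73 FPKM in EcCK (SD, n = 3), and the log2 fold change was 8.64 ± 0.52 (SE), the 3rd largest. A gene was called where its edgeR adjusted p was at most 0.05 and its log2 fold change at least 1 in size, and 12.8% of all genes tested were called higher and 47.6% lower in this contrast. After TMM rescaling 2352 genes were higher and 2798 lower, in place of 1145 and 4251. In bulk RNA such as this, fewer cells of a type and less RNA per cell cannot be told apart.

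The comparison of EcSQ with EcCK asks whether roots of the other Panax species gave the same change. Both genes rose. SI65_09249 had a mean of 1061 ± 365 FPKM in EcSQ (SD, n = 3), a log2 fold change of 5.48 ± 0.72 (SE) over EcCK with an edgeR adjusted p = 0.0206, and stood 20th from the top of 9160 genes. SI65_09252 had a mean of 215 ± 108 FPKM (SD, n = 3), a log2 fold change of 6.95 ± 0.81 with an adjusted p = 0.0180, and stood 12th. In all, 1.72% of genes were called higher and 1.87% lower in this comparison. Levels in both the EcSQ and the EcCK libraries were in view when the pair was chosen, so the test is not independent of that choice. The summed level of 5 genes annotated to conidia was also higher in every EcSQ library (92.4 to 110.6 FPKM) than in EcCK (25.9 to 74.7 FPKM). The largest part in EcSQ was the regulator brlA, at 59.9 FPKM on average beside 19.5 FPKM in EcCK. Of the 5 genes, 2 had every EcSQ library above every control, beside 14.3% of all genes tested, and 0 were called. The part of this sum in the result was not tested.

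Both calls held without EcCK replicate 3, EcSQ replicate 1 or EcSQ replicate 3 and were lost without any of the remaining libraries. The adjusted p of both genes was 0.0744 without EcCK replicate 1, 0.0519 without EcCK replicate 2 and 0.139 without EcSQ replicate 2, in which fits 0, 4 and 0 genes of the whole table were called. Leaving out 1 library moved the log2 fold change of SI65_09249 between 5.16 and 6.32, the highest without EcCK replicate 3 and 1.80 times the fold of all libraries, and that of SI65_09252 between 6.52 and 7.33.

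The comparison of EcRS with EcSQ asks whether the fungus differed between the Panax species. Both genes had higher values on ginseng roots in every library, but neither passed the test. Levels in both the EcRS and the EcSQ libraries were in view when the pair was chosen, so no fit of this comparison is independent of that choice. SI65_09249 had a log2 fold change of 1.74 ± 0.38 (SE) and SI65_09252 of 1.69 ± 0.48, both with an edgeR adjusted p = 0.0994. Only 3 of 8784 genes (0.0342%) were called higher in EcRS and 0 lower in this comparison, although 2670 genes had an unadjusted p under 0.05, and TMM rescaling called 14 higher and 1 lower and DESeq2 458 and 1067. The outcome depended on EcSQ replicate 3, the library with the low median level. Without it both genes were called, with log2 fold changes of 1.61 (adjusted p = 0.00135) and 1.38 (adjusted p = 0.00333), as were 4780 genes in all. DESeq2 also called both, at 2.28 (adjusted p = 9.5e-05) and 2.35 (adjusted p = 5.8e-05), and a single edgeR fit over all 9 libraries called SI65_09252 (adjusted p = 0.0482) but not SI65_09249 (adjusted p = 0.0530).

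Of the genes between the pair, SI65_09251 was also higher on both roots and SI65_09250 was not. SI65_09251, the other Cyanovirin-N gene, already stood at 146, 135 and 263 FPKM in EcCK. It reached 5208, 2905 and 3798 FPKM in EcRS and 2936, 1613 and 2101 FPKM in EcSQ. All root libraries lay above all controls, but EcRS and EcSQ overlapped. Its log2 fold change was 4.45 ± 0.42 (SE) for EcRS against EcCK (edgeR adjusted p = 3.79e-05) and 3.61 ± 0.53 for EcSQ against EcCK (adjusted p = 0.0206). The second call was lost without the same libraries as those of the pair, with an adjusted p of 0.0933 without EcCK replicate 1, 0.0855 without EcCK replicate 2 and 0.139 without EcSQ replicate 2. For EcRS against EcSQ it was 0.84 ± 0.37 (adjusted p = 0.168).

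SI65_09250 was low in all 9 libraries. It gave 2.52, 5.03 and 2.90 FPKM in EcCK, 0.763, 0.467 and 0.492 FPKM in EcRS and 3.97, 0.839 and 0.379 FPKM in EcSQ. Its EcRS libraries lay below all controls, as did those of 54.3% of genes, whereas its EcSQ libraries spread over the range of the other groups. SI65_09250 fell in EcRS against EcCK, with a log2 fold change of -2.50 ± 0.52 (edgeR adjusted p = 0.00241), resting on 6 to 12 estimated counts in the EcRS libraries. It was -1.69 with TMM, -1.67 with DESeq2 and -0.60 with limma on log2(FPKM + 5), which did not pass the fold threshold. It did not pass in EcSQ against EcCK (a fold of 0.499, adjusted p = 0.590, with a log2 fold change of -2.48 without EcSQ replicate 1) or in EcRS against EcSQ (log2 fold change -1.50 ± 0.91, adjusted p = 0.281). On roots the low gene thus stood between strongly expressed genes on both sides, 479 bases after the end of SI65_09249 and 648 bases before the start of SI65_09251.

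The proportion of SI65_09249 to SI65_09251 separated all 3 groups. SI65_09249 was chosen for its large rise on roots, so a low proportion in EcCK follows in part from that choice. How often other pairs of genes separate the groups in this way was not examined. Those of SI65_09252 to either gene were lower in every EcCK library than in every root library but did not separate EcRS from EcSQ. Relative to SI65_09249 the margin was narrow, with 12.7% in EcCK replicate 1 and 12.8% in EcSQ replicate 3. SI65_09249 amounted to 8.34%, 10.6% and 17.1% of the FPKM of SI65_09251 in the EcCK libraries, to 50.5%, 51.9% and 41.2% in EcSQ, and to 87.7%, 91.2% and 89.7% in EcRS. The 3 groups did not overlap, and the libraries of EcRS agreed within 4 percentage points. SI65_09252 amounted to 12.7%, 7.69% and 5.60% of SI65_09249 in EcCK, to 21.4%, 17.7% and 18.7% in EcRS, and to 14.2%, 38.9% and 12.8% in EcSQ. EcSQ replicate 2 stood far above the other EcSQ libraries in this proportion, and the EcSQ libraries overlapped those of EcRS. SI65_09252 amounted to 0.812% to 1.06% of SI65_09251 in EcCK, 16.1% to 18.8% in EcRS and 5.26% to 20.2% in EcSQ, where the root groups overlapped as well.

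On the log2 scale the ratio of SI65_09249 to SI65_09252 was 3.61 ± 0.59 in EcCK, 2.38 ± 0.14 in EcRS and 2.38 ± 0.89 in EcSQ (SD, n = 3 each). Both genes were chosen by their levels in these libraries, so the tests of this ratio are not independent of that choice. The difference between EcSQ and EcCK was -1.23, with a two-sided exact permutation p = 0.1, the smallest that 3 against 3 libraries allow (0.2 adjusted over the 2 comparisons tested). That difference was -0.72 without EcSQ replicate 2 and -0.61 with 1 FPKM added to both levels. Between EcRS and EcSQ it was -0.0036 (exact permutation p = 1.0). The spread of the EcSQ ratios came from the order of the libraries. Within EcSQ, SI65_09249 and SI65_09251 were highest in replicate 1 and lowest in replicate 2, while SI65_09252 was highest in replicate 2 and lowest in replicate 3. Within EcRS all 3 genes were highest in replicate 1 and lowest in replicate 2, and within EcCK all 3 were highest in replicate 3.

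**Figure D2:**
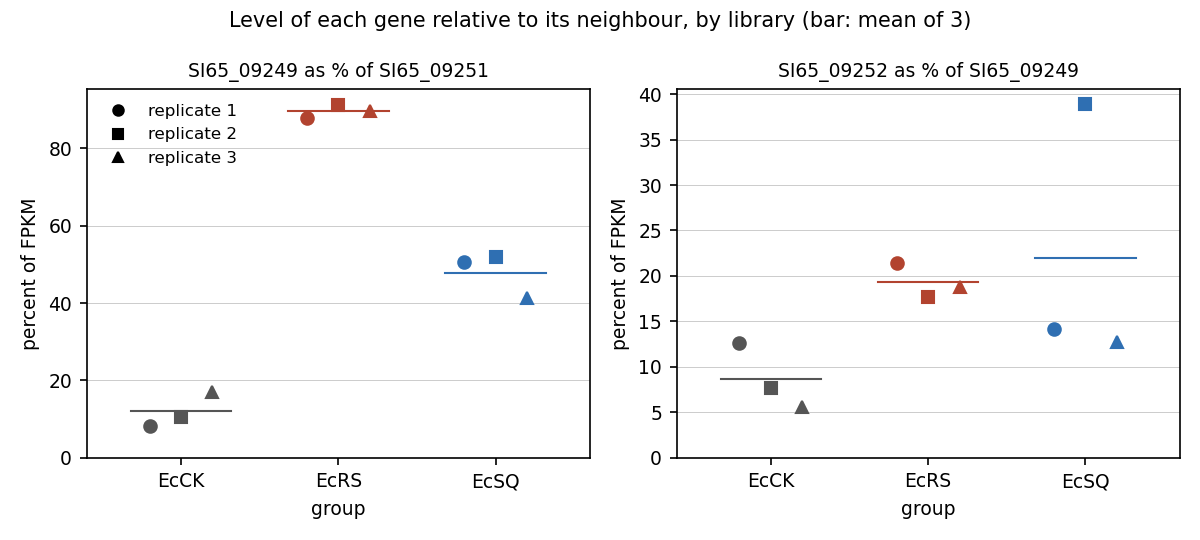
FPKM of SI65_09249 as a percent of that of SI65_09251 (left) and of SI65_09252 as a percent of that of SI65_09249 (right), in each library by group, with the mean of 3 as a bar. The left-hand proportion separates the 3 groups, at 8.34% to 17.1%, 41.2% to 51.9% and 87.7% to 91.2%, and in the right-hand one EcSQ replicate 2 stands apart at 38.9%.

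Together the 3 genes took a small share of the mapped reads in EcCK, 0.00482% to 0.00999% of mapped units. They took 0.0893% to 0.149% in EcSQ and 0.194% to 0.347% in EcRS. Of the summed FPKM of all 15 genes annotated with carbohydrate binding, the 3 made up 7.08% to 15.1% in EcCK, 38.7% to 70.4% in EcSQ and 73.9% to 83.8% in EcRS.

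All 15 carbohydrate-binding genes were tested, and few besides the 3 of contig 17 were called higher. In EcRS against EcCK 4 were called higher, the 3 genes of contig 17 and SI65_02895, annotated as a Golgi nucleotide-sugar transporter, at a log2 fold change of 2.33 ± 0.31 (adjusted p = 0.000219). Another 3 were called lower and named after their values were seen, SI65_00336, annotated with protein folding in the endoplasmic reticulum (-1.39, and -0.67 with an adjusted p = 0.268 after TMM rescaling), and SI65_02794 (-3.53) and SI65_06602 (-4.94), both annotated with carbohydrate metabolism. In EcSQ against EcCK the same 4 genes were called higher and 0 lower, with SI65_02895 at 3.34 ± 0.73 (adjusted p = 0.0452). The calls of SI65_02895 in EcSQ and of SI65_00336 in EcRS were not stable. The first was lost without EcSQ replicate 2 (adjusted p = 0.165), without EcCK replicate 1, 2 or 3 (adjusted p = 0.194, 0.183 and 0.0983) and with TMM (adjusted p = 0.0541), and the second without EcCK replicate 2 (adjusted p = 0.0570), EcRS replicate 1 (adjusted p = 0.0688) or EcRS replicate 2 (adjusted p = 0.0664). In EcRS against EcSQ 0 of 15 were called, where 0.0342% of all genes were called higher and 0 lower. The median log2 fold change of the 15 was 0.09 in EcRS against EcCK and 0.79 in EcSQ against EcCK, beside -0.96 and -0.01 for all genes. Without the 3 genes it was -0.18 and 0.53 over 12 genes, of which 1 was called higher and 3 lower in EcRS against EcCK, where 12.8% of all genes were higher and 47.6% lower. In EcSQ against EcCK 1 of the 12 was higher and 0 lower, beside 1.72% and 1.87% of all genes.

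**Figure D3:**
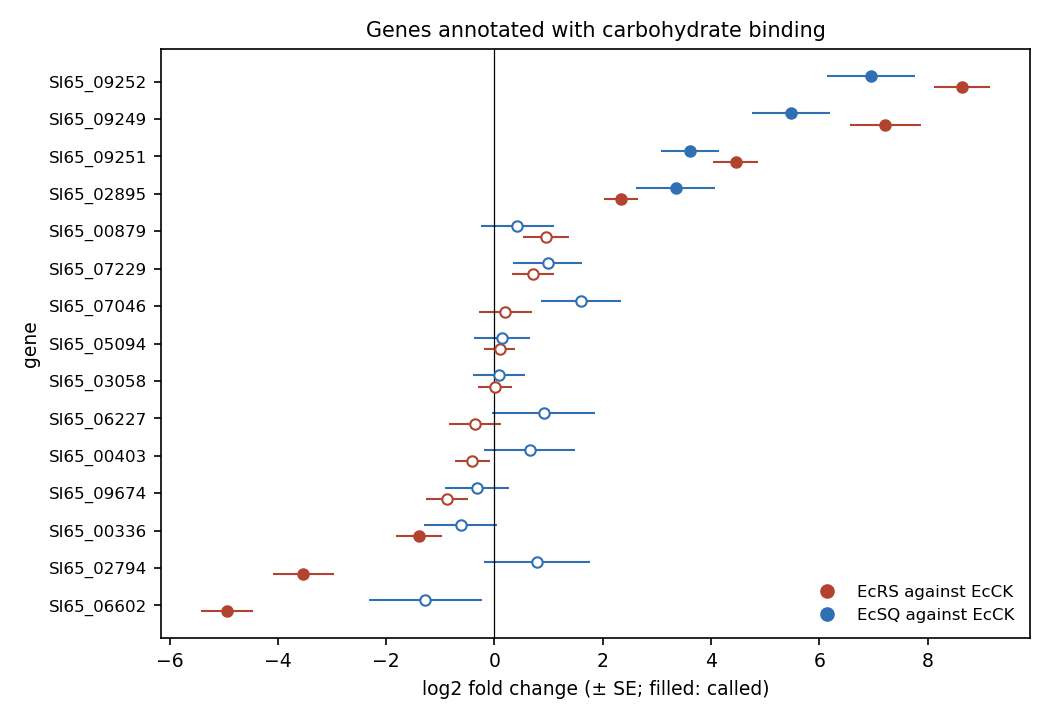
Log2 fold change with its SE for the 15 genes annotated with carbohydrate binding, EcRS against EcCK in red and EcSQ against EcCK in blue, with called genes filled. The 3 genes of contig 17 stand at 4.45 to 8.64 in EcRS and 3.61 to 6.95 in EcSQ, and the genes called lower in EcRS are open in EcSQ.

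High-mannose glycans are built on proteins by the N-glycan pathway, and 47 fungal genes annotated to that pathway were tested. Of these, 12 (25.5%) were called higher and 17 (36.2%) lower in EcRS against EcCK, beside 12.8% and 47.6% of all genes. In EcSQ against EcCK 1 (2.13%) was higher and 2 (4.26%) lower, beside 1.72% and 1.87%. In EcRS against EcSQ 0 were called, beside 0.0342% higher and 0 lower of all genes. Their median log2 fold change was -0.41 in EcRS against EcCK and 0.65 in EcSQ against EcCK, beside -0.96 and -0.01 for all genes. Their summed level was 2132 to 2241 FPKM in EcCK, 2076 to 2354 FPKM in EcRS and 2326 to 3027 FPKM in EcSQ, so that every EcSQ library lay above every control. The sum includes SI65_01834 and SI65_02047, both described as the sphingolipid-responsive protein PIL1 and not as glycan enzymes. They averaged 222 and 220 FPKM in EcCK, 78.6 and 80.2 FPKM in EcRS, and 32.0 and 31.9 FPKM in EcSQ. A sum without them was not computed. Of 199 genes annotated to the extracellular region, among which the 3 genes were not listed, 45 of the 181 tested were called higher and 60 lower in EcRS against EcCK, and 18 higher and 2 lower of 188 in EcSQ against EcCK. These shares of genes called higher, 24.9% and 9.57%, stand beside 12.8% and 1.72% of all genes. The shares called lower, 33.1% and 1.06%, stand beside 47.6% and 1.87%.

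The pair sat in a stretch of contig 17 with several other changed genes. Among the 24 genes from the 10th before SI65_09249 to the 10th after SI65_09252, 22 were tested, and SI65_09257 and SI65_09262 were below the level needed. In EcRS against EcCK 11 were called higher and 4 lower, or 8 and 4 of 19 without the 3 carbohydrate-binding genes, where 12.8% of all genes were higher and 47.6% lower. Over the whole contig 31 of 142 genes tested (21.8%) were called higher and 59 (41.5%) lower in the same comparison.

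Called neighbours lay on both sides, with genes that were not called among them. Before the pair lay SI65_09240, annotated with transmembrane transport, at a log2 fold change of 1.19, and then SI65_09244 (2.66), SI65_09245 (1.18), SI65_09246 (1.08) and SI65_09247 (2.95), which are consecutive and of unknown function apart from a DNA-binding annotation of SI65_09246. Those at 1.19, 1.18 and 1.08 were low genes, at 2.64, 7.99 and 5.51 FPKM on average in EcRS, and their calls were lost in the fit over all 9 libraries (adjusted p = 0.138, 0.181 and 0.1795) and without EcCK replicate 2 (adjusted p = 0.0622, 0.0610 and 0.0815) or EcRS replicate 1 (adjusted p = 0.0545, 0.0778 and 0.102). The call of SI65_09240 was also lost without EcCK replicate 1 (adjusted p = 0.0553) and EcRS replicate 3 (adjusted p = 0.0581), and that of SI65_09246 without EcCK replicate 3 (adjusted p = 0.0573), without EcRS replicate 3 (adjusted p = 0.0615) and with replicate number as a block (adjusted p = 0.0545). After the pair lay SI65_09255 (3.01), SI65_09256 (3.53) and SI65_09258 (2.75), hypothetical proteins without an annotated function.

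The nearest genes on either side did not share the rise. SI65_09248, annotated as an oxidoreductase with heme and iron binding and lying 2776 bases before SI65_09249, had 76.4 ± 31.0 FPKM in EcCK and 51.6 ± 2.78 FPKM in EcRS (SD, n = 3) and was not called (log2 fold change -0.57 ± 0.30, adjusted p = 0.127). SI65_09253, which lies 286 bases after SI65_09252 on the opposite strand, fell, at -1.50 ± 0.34 (adjusted p = 0.00383), although only by 0.61 after TMM rescaling, which did not pass the fold threshold, and the call was also lost in the fit over all 9 libraries (adjusted p = 0.0898). SI65_09254 (-2.09) and SI65_09261 (-3.98) were also lower. The levels of SI65_09249 and SI65_09252 in EcRS were the highest of the 24 apart from SI65_09251.

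In EcSQ against EcCK 5 of the 22 neighbourhood genes were called higher and 0 lower, beside 1.72% and 1.87% of all genes. They were the 3 carbohydrate-binding genes, SI65_09256 at 3.04 ± 0.65 (adjusted p = 0.0403) and SI65_09258 at 3.07 ± 0.64 (adjusted p = 0.0369). Without the 3 carbohydrate-binding genes, around which the stretch was drawn, 2 of 19 were called higher and 0 lower. The calls of SI65_09256 and SI65_09258 were lost when any library but EcSQ replicate 3 was left out, with an adjusted p between 0.0503 and 0.242. The remaining 17 ranged from -1.63 to 3.02. In EcRS against EcSQ 0 of 22 were called, beside 0.0342% higher and 0 lower of all genes.

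**Figure D4:**
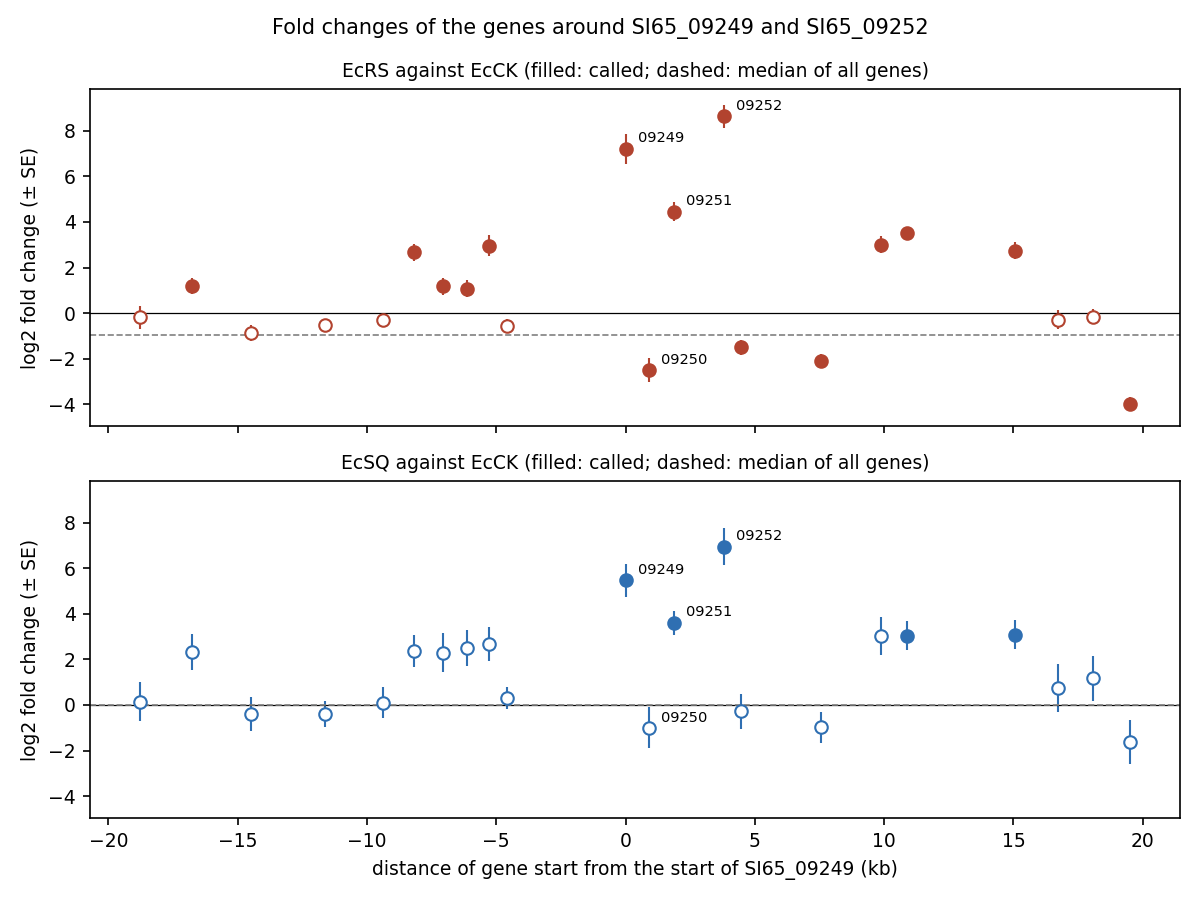
Log2 fold change with its SE for the 22 tested genes around the pair, against the distance of each gene's start from the start of SI65_09249 in kb, for EcRS against EcCK (top) and EcSQ against EcCK (bottom). Filled points were called, the dashed line is the median of all genes, and SI65_09249 and SI65_09252 stand highest in both, at 7.22 and 8.64 and at 5.48 and 6.95.

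Likeness of pattern was measured by Pearson's r of log2(FPKM + 1) with each of 9032 other genes over the 9 libraries, which share their groups and so mostly the difference between groups. The gene most like SI65_09249 was SI65_01694, the delta subunit of mitochondrial ATP synthase (r = 0.997), followed by SI65_09251 (r = 0.996) and SI65_06608, annotated with actin filament binding (r = 0.991). SI65_09252 came 5th (r = 0.987). The gene most like SI65_09252 was SI65_09249, followed by SI65_01694 and SI65_04227, annotated to the nucleosome (both r = 0.986), and SI65_09251 came 9th (r = 0.981). The median r of all genes was -0.36 with either member. By Spearman's rho the order of genes was another. SI65_09252 then came 85th for SI65_09249, and SI65_09249 came 52nd for SI65_09252 (rho = 0.933), while SI65_04451, a ribosomal protein, and SI65_06446 had the same order of libraries as SI65_09249 (rho = 1). Pearson's r of SI65_09250 was -0.72 with SI65_09249 and -0.73 with SI65_09252.

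After each group's mean was subtracted, which leaves the spread among replicates, the likeness differed. SI65_09249 and SI65_09251 still varied together (r = 0.923, 56th of 9032 genes, and 123rd with r = 0.859 after TMM rescaling). The genes most like SI65_09249 in this measure were SI65_00582 (r = 0.987), annotated only as having catalytic activity, SI65_06446 (r = 0.982), of unknown function, and SI65_06510 (r = 0.979), annotated as a phosphatase. SI65_09249 and SI65_09252 had r = 0.475, beside a median of 0.392 for all genes with SI65_09249 and 0.505 with SI65_09252. After TMM rescaling the pair had r = 0.315, beside medians of -0.07 and 0.02, and the 3 genes most like SI65_09249 were others, while SI65_03469 stayed first for SI65_09252. For SI65_09252 and SI65_09251 r was 0.370. The genes most like SI65_09252 were SI65_03469, annotated to the mitochondrial envelope (r = 0.960), SI65_01398, a predicted sulfotransferase (r = 0.953), and SI65_07149, of unknown function (r = 0.949).

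Because the sources differ on whether the controls were spores, genes annotated to conidia or spore formation and to growing hyphae were summed in each library. The 5 conidium genes, among them the regulators brlA and abaA, summed to 25.9 to 74.7 FPKM in EcCK, 40.9 to 59.2 FPKM in EcRS and 92.4 to 110.6 FPKM in EcSQ, where every library lay above those of the other groups. Of the EcSQ sum, brlA alone averaged 59.9 FPKM. The 9 hypha genes, chitin synthases with their export chaperone and septins, summed to 517 to 804 FPKM in EcCK, 675 to 1027 FPKM in EcRS and 752 to 1215 FPKM in EcSQ. The septins SI65_02544 and SI65_03797 averaged 160 and 107 FPKM in EcCK, 382 and 172 FPKM in EcRS, and 405 and 290 FPKM in EcSQ. The chitin synthase C genes SI65_00026 and SI65_07950 went the other way. They averaged 171 and 96.15 FPKM in EcCK, 80.5 and 64.6 FPKM in EcRS, and 92.7 and 41.6 FPKM in EcSQ. No conidium or hypha gene was at 0 in any library. In EcRS against EcCK 1 of the 5 conidium genes was lower and, of the 9 hypha genes, 1 was higher and 2 lower, beside 12.8% higher and 47.6% lower of all genes, and in EcSQ against EcCK 0 of either list was called. EcCK replicate 3, the control with the highest values of SI65_09249, SI65_09251 and SI65_09252, also had the highest conidium sum of the controls, 74.7 FPKM beside 25.9 and 33.6, the highest hypha sum, 804 FPKM beside 517 and 693, and the highest median level of all genes. The part of growth stage in the levels of the pair was not tested.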

How the data were processed

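The fungal RNA was read as Illumina libraries. The authors aligned read pairs to the Aspergillus cristatus genome and deposited, for each gene and library, FPKM and an estimated count. HISAT2 2.0, StringTie 1.3.0 and Bowtie 0.12.2 appear, with no role given, in the submitters' processing notes. Each library's size was recovered from count, FPKM and coding length. After rounding, the estimated counts of the 6 libraries of each comparison entered the quasi-likelihood test of edgeR 4.0.16 in R 4.3.3, with that library size, no further scaling, genes averaging 1 FPKM or more, and Benjamini-Hochberg adjustment over all of them. The SE is the fold change divided by the square root of F. Alternatives were TMM, DESeq2 1.42.0, limma 3.58.1 on log2(FPKM + 1, 0.1 or 5), other filters (none, or 5 FPKM), 1 fit over 9 libraries, counts divided by 4, the replicate number as a block, and each library left out. The code was tested on simulated data.

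The members and lists were chosen with earlier results of these data known. Named were the pair, genes between them, genes described as cyanovirin, called genes among the 10 before and 10 after, the 3 genes most like each member over 9 libraries and within groups, and the 3 largest called changes in each direction among carbohydrate-binding genes in EcSQ against EcCK. SI65_02895 and the carbohydrate-binding genes that were lower in EcRS fell outside this rule. A search of the descriptions for lectin matched 0 genes. Same-numbered libraries of EcRS and EcCK had r = 0.12, 0.20 and 0.29 across genes in their deviations from the group means. Of the differently numbered couples, EcRS replicate 2 with EcCK replicate 1 also had r = 0.20, and the others lay between -0.28 and -0.02. Pairing by replicate number was thus not established. In the other comparisons r of same-numbered libraries lay between -0.17 and 0.21.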

Additional observations from a re-analysis of the deposited data

How the results depend on the processing

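In every alternative run, SI65_09249 and SI65_09252 kept their direction in all 3 comparisons. For EcRS against EcCK their log2 fold changes were 8.17 and 9.51 with TMM, 8.19 and 9.54 with DESeq2, and 8.27 and 9.48 with replicate block and TMM together. That of SI65_09252 was 7.97 and 6.64 with limma on log2(FPKM + 1) and log2(FPKM + 5), which shrink low values by construction. Without 1 library, SI65_09249 ranged from 6.90 to 8.06. No pairing of libraries by replicate number was established. With the replicate block, EcSQ against EcCK gave 5.70 (adjusted p = 0.0604) and 6.90 (adjusted p = 0.0667), with 9 genes called higher and 25 lower in the whole table. SI65_09251, SI65_09256, SI65_09258 and SI65_02895 were not called there with the block either. With block and TMM together, both members (edgeR adjusted p = 0.0206 each) and SI65_09251 (adjusted p = 0.0351) were called in EcSQ against EcCK. In the other comparisons the block changed no call of a named gene except that of SI65_09246. In EcSQ against EcCK SI65_09252 was at 6.22 and 4.91 with limma on log2(FPKM + 1) and log2(FPKM + 5), both called. Without 1 library, values ranged from 5.16 to 6.32 for SI65_09249 and from 6.52 to 7.33 for SI65_09252. For EcRS against EcSQ, DESeq2 gave 2.28 and 2.35 and the fit over 9 libraries 1.69 for SI65_09252, all called, and without 1 library the values ranged from 1.51 to 2.06 and from 1.36 to 2.12. The difference in log2 ratio between EcRS and EcCK was -0.60, and that between EcSQ and EcCK -0.61, on log2(FPKM + 1).

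Counts over all genes moved more. For EcRS against EcCK, genes higher and lower numbered 2352 and 2798 with TMM, 2424 and 2814 with DESeq2 and 2392 and 2768 with replicate block and TMM, and limma on log2(FPKM + 5) called 2738 lower. For EcSQ against EcCK they numbered 431 and 449 with TMM, 1274 and 1036 with DESeq2, 315 and 351 with limma on log2(FPKM + 5) and 714 and 588 in the fit over 9 libraries. There limma on log2(FPKM + 1) called 259 lower, replicate block with TMM 84 higher, and leaving out 1 library gave 0 to 907 higher and 0 to 614 lower. For EcRS against EcSQ they numbered 14 and 1 with TMM, 458 and 1067 with DESeq2 and 115 and 1053 in the fit over 9 libraries. There 5 were higher with limma on log2(FPKM + 5), 6 with replicate block and TMM, and 0 with limma on log2(FPKM + 0.1) or the replicate block, and leaving out 1 library gave 0 to 374 higher and 0 to 4406 lower. The cause was not tested. In EcCK the level of SI65_09252 rests on 25 to 57 estimated counts a library, which limits the precision of its fold changes.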
